A study of Mus musculus with 30 samples.

Results

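Hedgehog signalling and the Hand transcription factors were followed through 8 genes: the receptor Ptch1, the signal transducer Smo, the ligand-binding antagonist Hhip, the transcription factors Gli1, Gli2 and Gli3, and the basic helix-loop-helix factors Hand1 and Hand2. They were chosen by name, as the genes to which 21 of the 45101 probe sets of the array are annotated, and each was read from its brightest probe set. All 8 were among the 15136 genes tested. Limb mesenchyme, the embryonic connective tissue that gives rise to the cartilage of the limb, was taken from CD-1 mouse embryos labelled E10.5 and cultured in medium with 10% serum. The early population came from the distal hindlimb, the intermediate population from the distal forelimb and the late population from the proximal forelimb. Control cultures of each were sampled on days 0, 1 and 2, and cultures given 20 ng/ml BMP4, a secreted bone morphogenetic protein, from the start on days 1 and 2. The 15 groups held 2 arrays each, 30 in all. The labels call these biological replicates. RNA was drawn from cultures of about 280 embryos, and whether the embryos of the 2 arrays were separate litters is not given in the sources used here, so p-values measure the spread between these arrays.

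In the hedgehog pathway, a secreted ligand binds PTCH1 and frees SMO, which changes the GLI factors from repressors into activators. Ptch1, Gli1 and Hhip are themselves switched on by the pathway, so their RNA is a common readout of it, whereas GLI3 acts largely as a repressor. In the limb bud Sonic hedgehog comes from the posterior margin, where HAND2 promotes its expression and opposes GLI3, and Indian hedgehog is made later by maturing cartilage cells. HAND proteins bind E-boxes together with a partner of the same protein family.

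The promoters of Ptch1, Gli3 and Hand2 are shown because these genes carried the differences between populations and treatments described here and because their windows held at least 1 of the motifs searched. RefSeq promoter windows of build GRCm38.p6, from 250 bases before to 50 after the gene start, were matched for 6 of the 8 genes, all but Gli1 and Hand1. The Ptch1 window lies at chr13:63565686-63565985 on the minus strand, the Gli3 window at chr13:15463473-15463772 on the plus strand, and the Hand2 window at chr8:57320733-57321032 on the plus strand. Capitals mark the GC-rich SMAD site GGCGCC and E-boxes, and sequences run 5′ to 3′ along the gene.
Ptch1: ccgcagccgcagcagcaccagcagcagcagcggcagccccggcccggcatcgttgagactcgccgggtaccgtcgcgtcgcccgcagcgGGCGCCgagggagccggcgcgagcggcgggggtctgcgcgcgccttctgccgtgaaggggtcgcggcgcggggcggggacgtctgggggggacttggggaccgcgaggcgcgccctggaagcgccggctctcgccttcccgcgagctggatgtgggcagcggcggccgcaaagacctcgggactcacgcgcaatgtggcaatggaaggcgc
Gli3: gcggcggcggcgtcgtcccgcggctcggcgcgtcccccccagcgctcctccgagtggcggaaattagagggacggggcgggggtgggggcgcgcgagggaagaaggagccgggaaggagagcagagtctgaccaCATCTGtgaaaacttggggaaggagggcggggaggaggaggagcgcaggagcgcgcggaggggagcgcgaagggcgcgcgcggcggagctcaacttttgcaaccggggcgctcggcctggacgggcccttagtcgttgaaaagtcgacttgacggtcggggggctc
Hand2: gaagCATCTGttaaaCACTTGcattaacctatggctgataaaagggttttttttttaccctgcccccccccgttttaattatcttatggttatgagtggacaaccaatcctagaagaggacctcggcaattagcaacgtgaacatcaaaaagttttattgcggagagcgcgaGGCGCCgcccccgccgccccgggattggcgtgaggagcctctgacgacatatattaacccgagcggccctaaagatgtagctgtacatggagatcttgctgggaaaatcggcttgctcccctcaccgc
The Ptch1 window held 1 GGCGCC, at -161 to -156 from the start, and Hand2 held 1 at -78 to -73. This motif was found in 11.9% of 32851 promoter windows of the same length. An E-box, CANNTG, is in 72.3% of all windows. The form CATCTG, bound by HAND proteins, is in 17.2% and was found once in Gli3, at -116 to -111, and once in Hand2, at -246 to -241. Hand2 held a further E-box, CACTTG, at -235 to -230. No GLI site, written as NACCACCCA, GNCCACCCA or GACCACCCN, was found in any of the 6 windows, against 3.29% of all windows, and no SMAD palindrome GTCTAGAC, against 0.213%. Both strands were searched. The windows of Smo, Hhip and Gli2 held none of these motifs. A match is a match of letters only, and Gli3 and Hand2 E-boxes of the CATCTG form overlap the general E-box by definition.

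Values are log2(signal + 16), where the signal is the linear intensity of the probe set, and differences are on the same scale, which understates differences of dim genes. Levels of different genes are not compared, since probe sets differ in response. The median signal of an array was 33.9 to 46.4, and the 2 arrays of a group had an r of 0.970 to 0.984 across genes (genes are no independent replicates). The mesenchymal gene Prrx1, chosen after its values were seen, read 10.47 to 11.37 on all 30 arrays. At day 0, Pitx1, a hindlimb gene, read 9.74 and 5.90 on the arrays labelled early and 6.15 and 9.43 on those labelled intermediate, and the forelimb gene Tbx5 read 4.47 and 8.50 on the former and 8.47 and 4.68 on the latter. Meis2, a proximal gene, read 9.60 and 7.53 on the arrays labelled late. Each day 0 array labelled as a second replicate is therefore in doubt, so no populations are compared at day 0. On days 1 and 2, Pitx1 was 9.37 to 9.95 in the early population and at most 6.66 in the others.

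Ptch1 was the one gene of the 8 whose response to BMP4 differed between populations past the threshold, and in the early population at day 2 it was lower with BMP4. On the arrays labelled early in control medium it read 10.54 and 10.24 at day 0, the second of which is in doubt. It read 10.17 and 9.78 at day 1, and 11.11 and 11.12 at day 2. With BMP4 the early arrays read 9.97 and 8.86 at day 1 and 9.84 and 8.76 at day 2. The early day 2 controls were the highest of all 30 arrays and the second early BMP4 arrays were the lowest, so that treated and control arrays of day 2 did not overlap.

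On the intermediate arrays Ptch1 read 9.75 and 9.72 in control medium and 10.92 and 9.93 with BMP4 at day 1, and 9.69 and 10.01 against 10.38 and 10.44 at day 2. On the late arrays it read 9.91 and 9.98 against 10.93 and 10.73 at day 1, and 10.03 and 10.65 against 10.60 and 10.26 at day 2. BMP4 arrays were thus the higher, without overlap, in 3 of these 4 pairs, and overlapped the controls in the late population at day 2.

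In the early population at day 2, Ptch1 was lower with BMP4 by -1.82 ± 0.34 (SE, 2 arrays per group), a 3.53-fold fall on this scale (adjusted p = 0.00385, limma). At day 1 the early difference was -0.56 ± 0.34 and did not pass the threshold of 0.05 (adjusted p = 0.475). In the other populations the differences were 0.70 (95% interval -0.02 to 1.41) and 0.56 (-0.15 to 1.28) for intermediate days 1 and 2, and 0.89 (0.17 to 1.60) and 0.09 (-0.63 to 0.80) for late days 1 and 2, with none past the threshold. The difference in response was itself tested over both days. The response of the early population lay below that of the intermediate by -1.82 ± 0.34 (adjusted p = 0.019) and below that of the late by -1.68 ± 0.34 (adjusted p = 0.0234). Averaged over all populations and days, the difference was -0.02 ± 0.14 (adjusted p = 0.942). Leaving out any 1 of 5 of the 16 arrays ended the first of these calls and any 1 of 11 the second, with values of -1.82 to -1.55 and -1.73 to -1.40 and adjusted p of at most 0.0868.

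The other hedgehog readouts followed Ptch1 in part. Gli1, a transcription factor that amplifies the pathway, read 8.44 and 8.24 on the early control arrays of day 2 and 7.59 and 6.48 with BMP4, without overlap. It fell there by 1.31 ± 0.35 (adjusted p = 0.0288), or 2.47-fold. At day 1 the early arrays read 7.86 and 7.58 in control medium and 8.16 and 6.86 with BMP4, so the controls lay between the treated arrays. On the intermediate arrays Gli1 read 7.52 and 7.17 against 7.75 and 7.21 with BMP4 at day 1, and 7.46 and 7.58 against 8.05 and 7.19 at day 2. On the late arrays it read 7.81 and 7.71 against 8.57 and 8.24 at day 1, and 7.86 and 7.93 against 7.94 and 7.91 at day 2. Of these, only late day 1 was free of overlap. There the difference was 0.65 (adjusted p = 0.719). Without the first control array the early day 2 difference of Gli1 was -1.21 (adjusted p = 0.198), and without the second -1.40 (adjusted p = 0.0888). The early response of Gli1 lay below the late one by -1.10 ± 0.35 (adjusted p = 0.163) and below the intermediate one by -0.88 (adjusted p = 0.391), and neither passed the test. The first of these passed without the first early BMP4 array of day 1 (-1.42, adjusted p = 0.0289) and without that of day 2 (-1.37, adjusted p = 0.0424).

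Hhip, which binds hedgehog ligands at the cell surface, read 6.49 and 5.54 in early controls and 7.57 and 5.36 with BMP4 at day 1, and 7.26 and 7.42 against 7.24 and 6.50 at day 2. In the intermediate population it read 5.42 and 5.58 against 6.80 and 6.39 at day 1, and 6.93 and 7.00 against 7.26 and 6.69 at day 2. In the late population it read 5.72 and 6.44 against 7.69 and 7.59 at day 1, and 5.90 and 7.00 against 7.07 and 6.76 at day 2. Treated arrays of the intermediate and late populations at day 1 lay above their controls. None of the 6 differences passed the threshold, the largest being 1.56 ± 0.48 in late day 1 (adjusted p = 0.327). The mean over populations and days was 0.52 ± 0.20 (adjusted p = 0.0972). Without the second array of both early BMP4 groups that mean was 0.76 ± 0.15 (adjusted p = 0.00263), an alternative added after seeing the data.

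**Figure D1:**
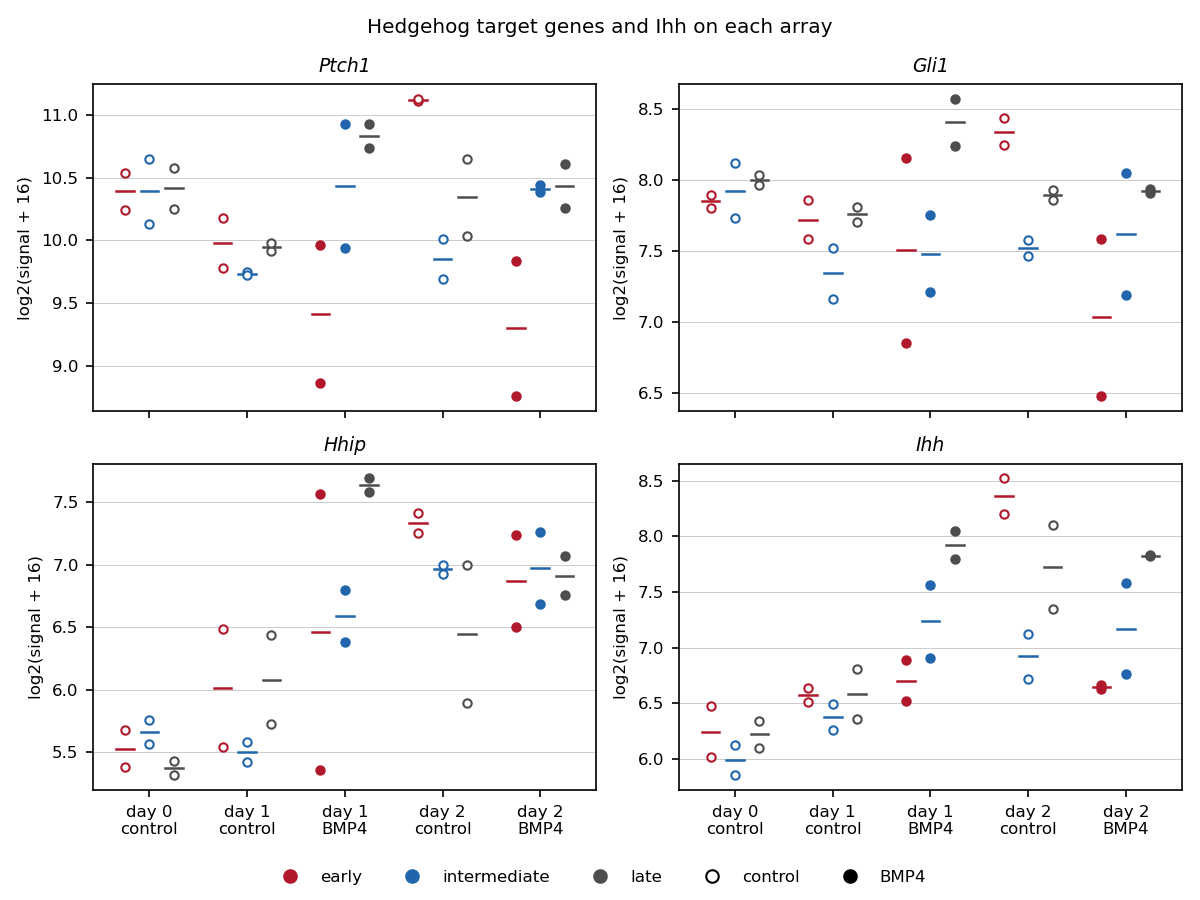
Level of Ptch1, Gli1, Hhip and the ligand gene Ihh as log2(signal + 16) on each of the 30 arrays, by day, treatment and population (colour); points are arrays, filled with BMP4 and open in control medium, and bars are group means. The early controls of day 2 hold the highest Ptch1, at 11.11 and 11.12, and Ihh there reads 8.52 and 8.20 against 6.62 and 6.67 with BMP4.

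Over the 24 arrays of days 1 and 2, Ptch1 and Gli1 varied together, with a Pearson r of 0.827. The arrays share their groups and 1 labelling procedure, so r describes these arrays only. Within populations, over 8 arrays each, r was 0.935 in early, 0.834 in late and 0.459 in intermediate. Ptch1 and Hhip had an r of 0.629. The range of r between Gli2 or Gli3 and these 3 genes was lower, from -0.37 for Gli1 and Gli3 to -0.003 for Ptch1 and Gli2.

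**Figure D2:**
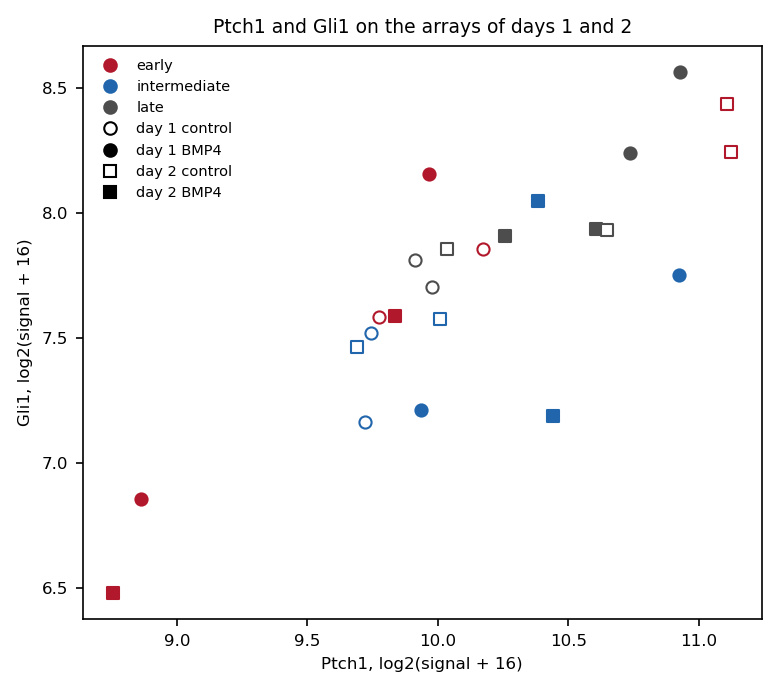
Gli1 against Ptch1, both as log2(signal + 16), on each of the 24 arrays of days 1 and 2, with colour for population, circles for day 1, squares for day 2, and filled points for BMP4. The second early BMP4 arrays of both days lie lowest in both genes and the early day 2 controls near the top, and r over all arrays is 0.827.

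The second array of the early BMP4 groups stood apart from the first on both days. Ptch1 was lower on it by 1.10 at day 1 and 1.08 at day 2, Gli1 by 1.30 and 1.11, and the cartilage regulator Sox9 by 1.60 and 0.76, while Hand1 was higher by 0.65 and 0.66. Without these 2 arrays, the early day 2 difference of Ptch1 was -1.28 (adjusted p = 0.0735) and that of Gli1 -0.75 (adjusted p = 0.244), and neither passed the threshold. The early minus intermediate and early minus late responses of Ptch1 were then -1.27 (adjusted p = 0.0991) and -1.13 (adjusted p = 0.149). Directions held, sizes were smaller and the calls were lost. Without the first early control array of day 2, the difference of Ptch1 was -1.83 (adjusted p = 0.0518). Averaging all probe sets of the gene gave -0.93 ± 0.30 (adjusted p = 0.0831). The 2 other probe sets of Ptch1 are dim, with median signals of 28.6 and 76.5 against 1167 for the one used, and gave -0.20 ± 0.32 and -0.76 ± 0.51 for the early population at day 2. Gli1 has 1 probe set.

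Cartilage genes differed in the same direction as Ptch1 in early day 2 and late day 1, but did not follow it throughout. The summed signal of 19 cartilage markers was 22264 to 23049 on the early day 2 controls and 5281 to 13032 with BMP4, and 9 of the 19 fell, where 5.68% of all genes were called in either direction, with a median of -1.47 against 0.02 for all genes. In the late population at day 1, where the Ptch1 difference was 0.89, that sum was 10173 to 11301 in controls and 15763 to 16747 with BMP4. There 0 of 19 passed the threshold, with 0.0793% of all genes called. In the remaining pairs the sums of BMP4 and control arrays overlapped. In intermediate day 1, where Ptch1 differed by 0.70, they were 11121 to 14660 in controls and 10387 to 17275 with BMP4. In control culture the median sum went from 2407 at day 0 to 11211 at day 1, while Ptch1 fell by 0.51. In bulk cultures, fewer cells of a type and less RNA per cell cannot be told apart. The part of cartilage cells in the Ptch1 and Gli1 differences was not tested.

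The ligands were examined next. Ihh, the hedgehog ligand of cartilage, read 8.52 and 8.20 on early day 2 controls and 6.62 and 6.67 with BMP4, and fell by 1.72 ± 0.28 (adjusted p = 0.00141). On late arrays of day 1 it read 6.36 and 6.81 in control medium and 7.80 and 8.05 with BMP4, without overlap, and that difference did not pass the threshold. The early response of Ihh lay below that of the late population by -1.51 ± 0.28 (adjusted p = 0.0155). Ihh is also 1 of the 19 cartilage markers. Without the second array of both early BMP4 groups the early day 2 difference of Ihh was -1.74 (adjusted p = 0.0307), still past the threshold, and the early minus late response was -1.43 (adjusted p = 0.106). Shh, the limb bud ligand, read 7.18 to 7.99 on the 6 arrays of day 0 and 5.88 to 7.16 on the 6 controls of day 1, and fell by 1.18 ± 0.35 (adjusted p = 0.0108). With BMP4, Shh lay above its controls without overlap in early day 1, by 1.03, and in early day 2, by 0.62, unlike Ihh. It lay below them in intermediate day 2, by -1.12, and the other 3 pairs overlapped. These are differences of means, and no test result is given for them. Shh was dim, with mean signals of 45.1 in controls and 109 with BMP4 in early day 1. In intermediate day 2 they were 58.3 and 18.0, beside a filter level of 20.3 to 30.5. The 2 late BMP4 arrays of day 1 read 4.54 and 7.58. Dhh was at 4.53 to 6.63 on all 30 arrays.

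Of 11 genes for hedgehog ligands and their release, 0 rose and 2 fell with BMP4 in the early population at day 2, Ihh and Sulf2, a sulfatase that edits heparan sulfate. Of all genes 5.68% were called there in either direction. The list median was -0.34, against 0.02 for all genes. On average over populations and days, where 11.7% of all genes were called, 1 rose and 2 fell, among them Sulf2 (-0.37 ± 0.05, adjusted p = 6.19e-05) and Scube2, which helps release the ligand (-0.60 ± 0.11, adjusted p = 0.00145), with a list median of 0.04. Of 10 co-receptor and reception genes, 0 rose and 2 fell on average, with a median of -0.11. One of them was the co-receptor Gas1 (-0.43 ± 0.07, adjusted p = 0.000314), which also fell by 0.99 ± 0.17 in the intermediate population at day 1 (adjusted p = 0.0077). Of 23 intracellular pathway genes, 0 passed the threshold in any of the 6 single BMP4 comparisons, where 0.00661% to 5.68% of all genes were called. On average, against 11.7% of all genes, only Prkacb, a catalytic subunit of protein kinase A, rose (0.22 ± 0.07, adjusted p = 0.0403). The list median was 0.03. Of 19 primary cilium genes, 1 rose in early day 2, near the 5.68% of all genes called there. It was Kif3b, a motor subunit of ciliary transport (0.68 ± 0.18, adjusted p = 0.0293), and the list median was -0.19. In the other 5 single comparisons 0 cilium genes passed, where only 0.00661% to 2.45% of all genes were called.

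Of 23 hedgehog target genes tested, a list that includes Ptch1, Gli1 and Hhip, 0 rose and 7 fell in the early population at day 2, with a median of -0.47 against 0.02 for all genes and 5.68% of all genes called in either direction. They were Ptch1, Gli1, Bmp2 (-2.17 ± 0.29, adjusted p = 0.000237), the survival gene Bcl2 (-2.24 ± 0.37, adjusted p = 0.00141), the cell cycle gene Ccnd1 (-0.87 ± 0.17, adjusted p = 0.00577), Mycn and Foxc2 (-2.12 ± 0.50, adjusted p = 0.0157). At early day 1, 0 rose and 4 fell, among them Mycn (-1.84 ± 0.26, adjusted p = 0.000408) and Osr2 (-2.62 ± 0.47, adjusted p = 0.00306), with a median of -0.18 and 2.45% of all genes called. Neither direction had a call in the intermediate or late population at either day, where 0.00661% to 0.238% of all genes were called. Not every target was lower. Grem1, also on this list, was higher with BMP4 at early day 2 by 1.21 without overlap, short of the threshold, and its mean response is given below. Bmp2 lay below its controls without overlap in 5 of the 6 pairs, all but late day 2. These included intermediate day 1 (-0.91) and late day 1 (-1.02), where the Ptch1 differences were 0.70 and 0.89. Neither gene passed the threshold there. Several of these genes answer to signals other than hedgehog. Without the second array of both early BMP4 groups, 2 fell at early day 2 and the median was -0.23, and Bmp2 still passed at -1.81 (adjusted p = 0.018).

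Neither Smo nor Gli2 passed the threshold in the 6 single BMP4 comparisons, and Gli2 moved the less. Smo, which carries the signal from PTCH1 into the cell, read 9.10 to 10.29 on all 30 arrays, and Gli2, the main activator of the pathway, 8.70 to 9.69. The early BMP4 arrays held Smo at 9.63 and 9.10 at day 1, below the controls at 9.92 and 9.74, and at 9.77 and 9.57 at day 2, below 10.07 and 10.10. Neither difference passed the threshold (-0.46, adjusted p = 0.245, and -0.42, adjusted p = 0.215). For Gli2 the 6 BMP4 differences lay between -0.13 and 0.08.

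Gli3 had the clearest difference between populations. Over the 8 arrays of days 1 and 2, its lowest, median and highest values were 9.74, 10.12 and 10.35 in the intermediate population, 9.09, 9.68 and 9.81 in the early and 9.29, 9.58 and 9.85 in the late. All but the lowest intermediate array lay above every early and late array. Gli3 was lower in early than in intermediate cultures by -0.50 ± 0.08 (adjusted p = 0.000408) and higher in intermediate than in late cultures by 0.53 ± 0.08 (adjusted p = 7.11e-05), 1.41-fold and 1.45-fold. A second probe set gave -0.52 (adjusted p = 0.0461) and 0.52 (adjusted p = 0.0241), and the third, which is dimmer, gave -0.34 (adjusted p = 0.403) and 0.52 (adjusted p = 0.0643) and passed in neither.

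Gli3 also declined in control culture. It read 10.13 to 10.60 on the 6 arrays of day 0, 9.66 to 10.35 at day 1 and 9.09 to 10.19 at day 2, and fell by 0.46 ± 0.09 from day 0 to day 1 (adjusted p = 0.00025) and by 0.40 ± 0.09 from day 1 to day 2 (adjusted p = 0.00607). On early arrays of day 2 it read 9.09 and 9.29 in control medium and 9.81 and 9.68 with BMP4, without overlap. There it was higher with BMP4 by 0.56 ± 0.15 (adjusted p = 0.0331), a call that was lost under median centring of the arrays (0.45, adjusted p = 0.13) and without any 1 of the 4 arrays compared (0.46 to 0.66). The early BMP4 arrays of day 1 read 9.80 and 9.67, close to those of day 2. In the other 5 BMP4 comparisons Gli3 did not pass. The 2 other probe sets of Gli3 had the same sign for both time steps and for early day 2 and passed in none of them, with values of -0.46 and -0.26, -0.25 and -0.51, and 0.37 and 0.43.

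**Figure D3:**
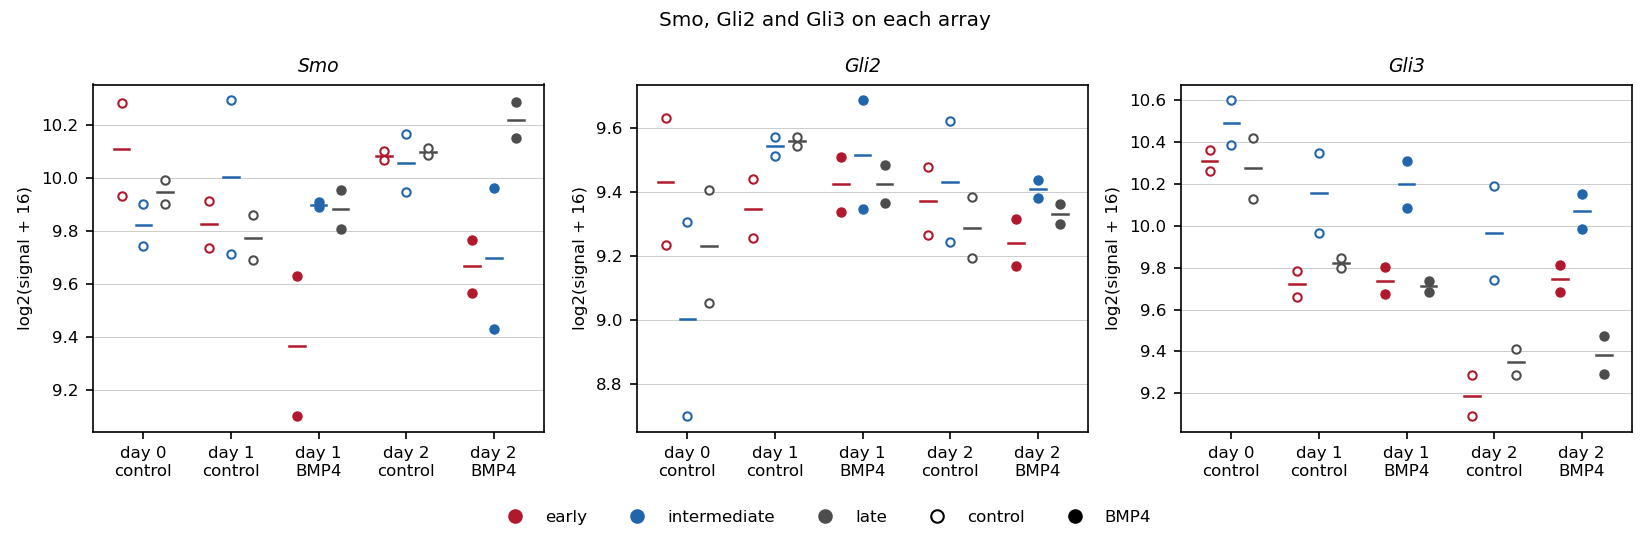
Level of Smo, Gli2 and Gli3 as log2(signal + 16) on each of the 30 arrays, by day, treatment and population (colour), with open points for control medium, filled points for BMP4 and bars for group means; each panel has its own axis. Gli3 is highest in the intermediate population on days 1 and 2 and lowest on the early day 2 controls, at 9.09 and 9.29.

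Hand1 had the largest difference of the 8 genes in the mean BMP4 response and rose in the early population, while in late day 1 and intermediate day 2 others had larger differences, none past the threshold. On the early arrays it read 7.01 and 7.11 in control medium and 8.52 and 9.18 with BMP4 at day 1, and 6.65 and 6.22 against 8.11 and 8.78 at day 2. On the intermediate arrays it read 6.24 and 7.13 against 7.44 and 9.23 at day 1, and 6.78 and 6.85 against 6.92 and 7.58 at day 2. On the late arrays it read 6.84 and 7.04 against 7.28 and 7.42 at day 1, and 6.27 and 6.25 against 6.17 and 7.28 at day 2. In 5 of the 6 pairs both BMP4 arrays lay above both controls, and late day 2 overlapped. At day 0 Hand1 read 6.72 to 7.54 on the 6 arrays, below every early BMP4 array.

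Hand1 rose in the early population by 1.79 ± 0.44 at day 1 (adjusted p = 0.0319) and by 2.01 ± 0.44 at day 2 (adjusted p = 0.0102), 3.47-fold and 4.02-fold. Averaged over populations and days it rose by 1.13 ± 0.18 (adjusted p = 0.00029), and this call held under all 34 alternatives tried, with values of 0.98 to 1.27. The second probe set gave 1.61 ± 0.37, 2.44 ± 0.37 and 1.27 ± 0.15 for the same comparisons. It is dim, with a signal of 4.16 to 119 and a median of 18.9, against 126 for the one used. That median lies under the filter level of 20.3 to 30.5, so this probe set was kept through its brighter arrays only. Intermediate day 1 had a difference of 1.65 ± 0.44 that did not pass (adjusted p = 0.145). Its 2 treated arrays were 1.79 apart, and without the first of them it was 2.54 (adjusted p = 0.00565). The early response exceeded the late one by 1.46 ± 0.44, which did not pass (adjusted p = 0.136). Without the second array of both early BMP4 groups the early differences were 1.47 (adjusted p = 0.238) and 1.67 (adjusted p = 0.169), and leaving out either control array ended these calls too, at 1.74 to 2.22.

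Hand2, which acts upstream of Shh in the limb bud, responded less in size. It read 10.50 and 10.75 against 10.77 and 11.33 with BMP4 in early day 1, 10.33 and 10.79 against 10.84 and 11.18 in intermediate day 1, and 10.52 and 10.59 against 10.79 and 11.09 in late day 1. At day 2 it read 9.90 and 10.14 against 10.20 and 10.75 in early, 9.64 and 10.23 against 10.28 and 10.71 in intermediate, and 10.07 and 10.37 against 10.39 and 10.18 in late cultures. Treated arrays lay above the controls in 5 of 6 pairs, again all but late day 2. How often all genes separate in this way was not counted, so these pair counts, also those of Ptch1 and Hand1, are descriptions only. No single comparison passed. The mean rise over populations and days was 0.39 ± 0.09 (adjusted p = 0.00906), 1.31-fold, and held under all 34 alternatives (0.30 to 0.44, highest adjusted p = 0.046). At day 0 Hand2 read 10.41 to 10.77 on the 6 arrays. In control culture it fell from day 1 to day 2 by 0.52 ± 0.13 (adjusted p = 0.0174), a call that ended without any 1 of 5 of the 12 arrays (-0.48 to -0.42).

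**Figure D4:**
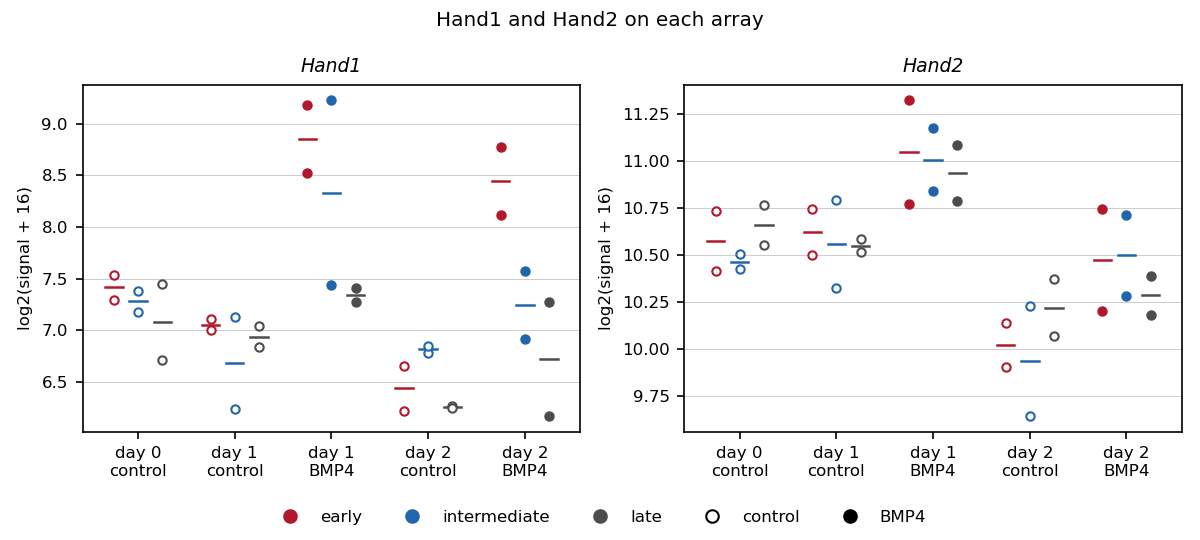
Level of Hand1 and Hand2 as log2(signal + 16) on each of the 30 arrays, by day, treatment and population (colour), with open points for control medium, filled points for BMP4 and bars for group means; each panel has its own axis. In 5 of 6 population and day pairs both BMP4 arrays lie above both controls for each gene.

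Macrophage genes were higher with BMP4 in the early and intermediate populations. The summed signal of 10 macrophage markers was 482 to 588 on early day 2 controls and 1419 to 1500 with BMP4, 738 to 834 against 1187 to 1439 in intermediate day 1, 586 to 607 against 1253 to 1279 in intermediate day 2, where Hand1 differed by 0.43, and 408 to 526 on all late arrays of days 1 and 2. On average over populations and days 8 of the 9 tested rose, where 11.7% of all genes were called, with a median of 0.60. Of 14 heart muscle genes tested 3 rose on average, and of 7 sympathetic neuron genes 1 rose, against the same 11.7%. These are other tissues in which Hand genes are known to act. The summed signal of 16 heart muscle markers was 2328 to 2615 in early controls and 3478 to 4488 with BMP4 at day 1, and 2324 to 3767 against 4792 to 5990 at day 2, without overlap. That of 8 sympathetic neuron markers was 316 to 342 against 449 to 485 and 255 to 266 against 418 to 438, again without overlap. These sums are low for 8 genes, beside a median signal of 33.9 to 46.4 for a single probe set. The sum of 10 smooth muscle markers was 8885 to 10794 in early day 2 controls and 14544 to 15726 with BMP4. It also separated in late day 2, at 9229 to 9968 against 10342 to 12001, and overlapped in the other pairs. In intermediate and late cultures the sympathetic neuron sums of BMP4 and control arrays overlapped on both days. The heart muscle sums overlapped there too, except in late day 2, at 7208 to 8116 in controls and 8676 to 8951 with BMP4. Those late controls lay above every early heart muscle sum. They also had more signal of 14 skeletal muscle markers, at 9282 to 10014 against 1456 to 3335 on early day 2 controls. The part of these cell types in the Hand1 and Hand2 differences was not tested.

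Of 16 bHLH partners and Id genes, 3 rose and 4 fell with BMP4 on average, where 11.7% of all genes were called, with a median of -0.06. Twist2, a mesenchymal factor of the same family, fell by 1.51 ± 0.20 in early day 2 (adjusted p = 0.000228), and its early response lay below the late one by -1.32 ± 0.20 (adjusted p = 0.00232). Id4, an inhibitor of bHLH factors, rose in early day 1 by 1.79 ± 0.30 (adjusted p = 0.00185). Of 27 genes of anterior-posterior limb pattern, 5 rose and 5 fell on average, against the same 11.7%, with a median of -0.06. The T-box factors Tbx2 (1.65 ± 0.21, adjusted p = 2.91e-05) and Tbx3 (1.28 ± 0.14, adjusted p = 5.4e-06), the zinc finger factor Gata6 (1.40 ± 0.21, adjusted p = 0.000206) and the BMP antagonist Grem1 (0.77 ± 0.17, adjusted p = 0.00606) rose. Bmp2 (-0.90 ± 0.12, adjusted p = 4.44e-05) and the FGF-responsive factors Etv4 (-0.97 ± 0.14, adjusted p = 0.000122) and Etv5 (-0.56 ± 0.09, adjusted p = 0.00027) fell.

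Counted over all 8 genes, the BMP4 calls lay mostly in the early population. At early day 1, 1 of 8 was called, Hand1, where 2.45% of all genes were. At early day 2, 4 of 8 were called, 2 higher and 2 lower, against 5.68% of all genes, with a median of -0.27 over the 8 and 0.02 over all genes. In the intermediate population 0 of 8 were called at day 1, with 0.238% of all genes, and 0 at day 2, with 0.00661%. In the late population 0 of 8 were called at day 1, with 0.0793%, and 0 at day 2, with 0.0132%. Few genes of any kind passed in these 4 comparisons, and a difference that did not pass there is not shown to be absent. For the mean over populations and days 2 of 8 were called, both higher, against 11.7% of all genes.

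**Figure D5:**
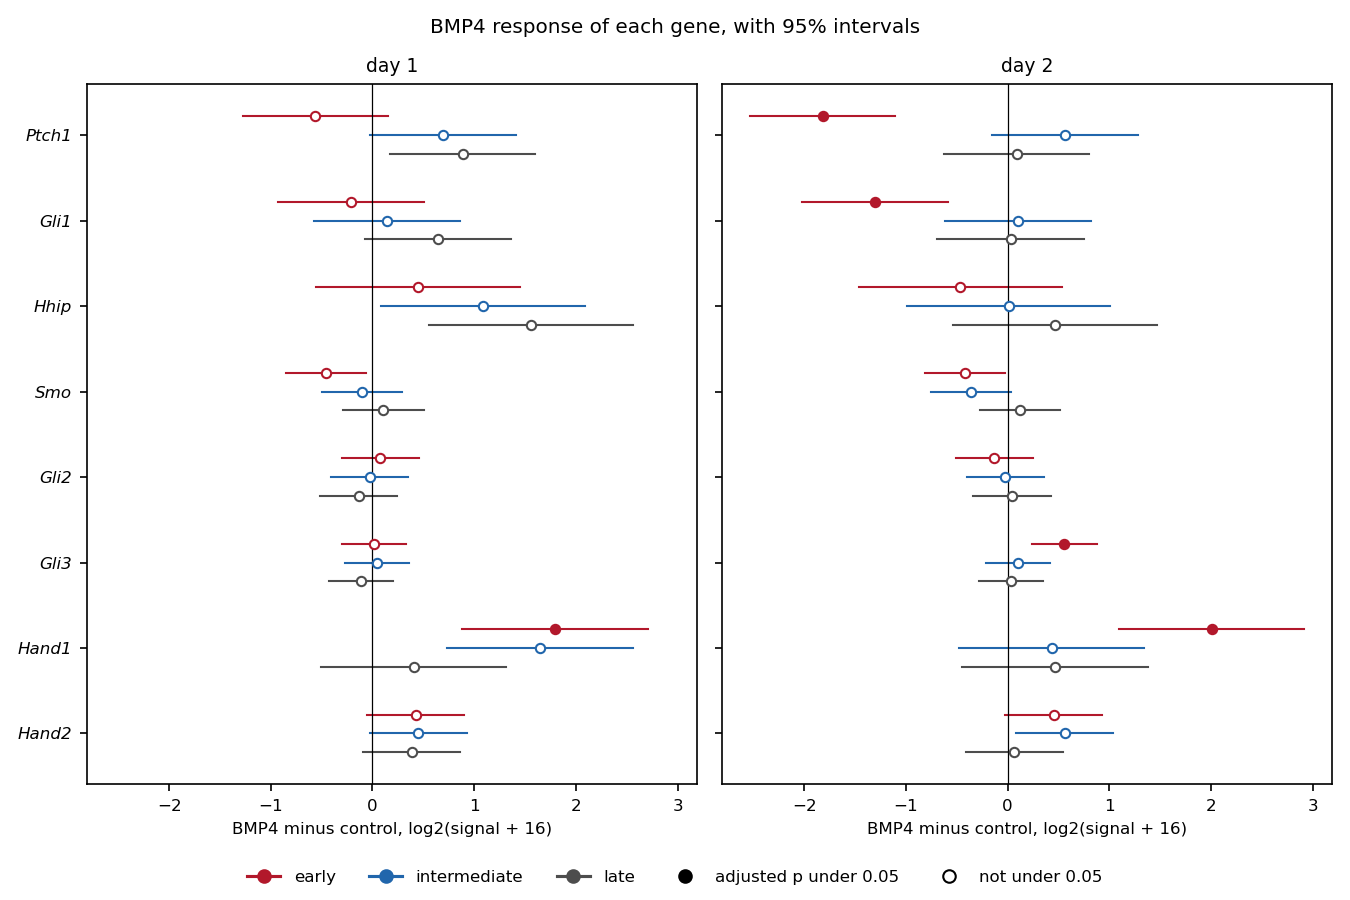
BMP4 minus control for each of the 8 genes at day 1 and day 2, as a difference of log2(signal + 16), with 95% intervals from limma; colour marks the population and filled points an adjusted p under 0.05. The early population has 1 filled point at day 1, Hand1, and 4 at day 2, Ptch1 and Gli1 below 0 and Gli3 and Hand1 above it.

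For the differences in response, 1 of 8 was called between early and intermediate, against 0.429% of all genes, and 1 of 8 between early and late, against 0.78%, both Ptch1. Between intermediate and late 0 of 8 were called by limma, with 0% of all genes. Between day 2 and day 1 0 of 8 were called, with 0.0132% of all genes, and the differences were largest for Hhip (-1.03, adjusted p = 0.628) and Ptch1 (-0.73, adjusted p = 0.632).

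In control culture the pathway genes moved in different directions. From day 0 to day 1, 2 of 8 fell, Gli3 and Ptch1, where 39.5% of all genes were called. Ptch1 read 10.13 to 10.65 at day 0 and 9.72 to 10.17 at day 1, and fell by 0.51 ± 0.20 (adjusted p = 0.0453), a call that 8 of 20 alternatives kept. Without the 3 day 0 arrays in doubt the difference was -0.60 (adjusted p = 0.0849). Gli2 was higher at day 1 than at day 0 by 0.26 ± 0.11, short of the threshold (adjusted p = 0.0535), and by 0.37 without those 3 arrays. From day 1 to day 2, 1 of 8 rose and 2 fell, against 8.55% of all genes. Hhip read 5.42 to 6.49 on the 6 arrays of day 1 and 5.90 to 7.42 at day 2. It rose by 1.05 ± 0.28 (adjusted p = 0.0213) or 2.07-fold, a call that ended without any 1 of 4 of the 12 arrays (0.87 to 1.02). Of its 3 other probe sets 2 passed in the same direction, at 1.01 and 0.74, and the third did not, at 0.59 (adjusted p = 0.0904). Ihh rose in the same interval by 1.16 ± 0.16 (adjusted p = 8.22e-05). Ptch1 had a difference of 0.55 that did not pass (adjusted p = 0.094), and its early arrays of day 2 at 11.11 and 11.12 stood above the other controls of that day, at 9.69 to 10.65.

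The rest of the pathway is given beside the share of all genes called, 39.5% from day 0 to day 1 and 8.55% from day 1 to day 2. From day 0 to day 1, 4 of 10 reception genes rose and 1 fell, among them the co-receptors Boc (1.02 ± 0.13, adjusted p = 2.91e-06) and Cdon (0.85 ± 0.17, adjusted p = 0.000305), which rose, with a list median of 0.24. Of the intracellular genes 6 of 23 rose and 6 fell, and of the anterior-posterior genes 0 of 27 rose and 12 fell, with a median of -0.56 against -0.004 for all genes. Among them Grem1 fell by 2.05 ± 0.25 (adjusted p = 1.14e-06). Sulf1, a sulfatase like Sulf2, rose by 3.04 ± 0.16 (adjusted p = 1.25e-11). Between day 1 and day 2, 4 of 11 ligand and release genes and 5 of 23 target genes rose, 0 of either fell, and 0 of the intracellular and 0 of the cilium genes passed in either direction.

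Between populations in culture, 1 of 8 was called between early and intermediate, Gli3, against 3.26% of all genes. Between early and late 1 of 8 was called, Hand1, against 9.02%, and between intermediate and late 1 of 8, Gli3, against 7.64%. Hand1 was higher in early than in late cultures by 0.88 ± 0.22 (adjusted p = 0.015), with a lowest, median and highest value of 6.22, 7.61 and 9.18 against 6.17, 6.94 and 7.42. Without the first late BMP4 array of day 2 it was 0.74 (adjusted p = 0.0505). This mean includes the BMP4 cultures, in which the early values were highest. Gli1 read 7.17, 7.49 and 8.05 in intermediate and 7.71, 7.92 and 8.57 in late cultures, a difference of -0.51 ± 0.17 that did not pass (adjusted p = 0.082), and that did pass in a fit of the compared arrays alone (adjusted p = 0.0239) and without the first intermediate BMP4 array of day 2 (-0.61, adjusted p = 0.0358).

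The genes whose levels were most like those of the members over the 24 arrays of days 1 and 2 were ranked by Pearson r, as a description of arrays that share groups and treatments. Ptch1 was most like Adgra3 (0.886), Stk26 and Tpd52l1. Gli1 was most like Tpd52l1 (0.931), Eid1 and Ptch1 itself, so that Tpd52l1 was among the 3 nearest for both. Gli3 was nearest to the distal limb factor Lhx2 (0.846), then Macir and the Notch ligand Jag1. Hand1 was nearest to Plac8 (0.914), Gpr137b and Bmp2k, and Hand2 to Akr1b10 (0.891), Palm2 and Ctla2a. Smo was nearest to Eif4enif1 (0.875), Fzd2 and Foxp4, Hhip to Ypel2 (0.825), Clmp and Osbpl1a, and Gli2 to L3mbtl2 (0.780), Ift22 and Pyroxd1. The most opposed gene had an r between -0.93, for Hand1 and Tmem209, and -0.71, for Gli2 and Mob3c. Among the members, Hand1 and Hand2 had an r of 0.672, and Smo and Hand1 one of -0.709.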

How the data were processed

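Expression was measured on 30 Affymetrix Mouse 430 2.0 arrays. The authors deposited MAS5 signal, a linear intensity per probe set, per the submitters' processing notes. Its settings were not given in the sources used here. Each array's mean without the top and bottom 2% of probe sets was 149.4 to 149.6, so the deposited intensity shares 1 scale. RNA was labelled without amplification, per the labels' protocols, which also mention E11.5 cultures. The number of arrays limits the precision.

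The 8 genes and 17 further gene lists were chosen with earlier results of these data known. Values were used as log2(signal + 16). A probe set was kept when above its array's 40th percentile (20.3 to 30.5 signal units) on 2 or more arrays, which left 33198 of 45101, with 20 of the 21 of the 8 genes. Symbols come from the platform annotation, with 34945 probe sets having 1 symbol, 932 several and 9160 none. The brightest probe set of each gene gave 15136 genes. Of 254 further list genes 233 were tested, while for 14 no probe set was matched. One limma 3.58.1 model (R 4.3.3) held a mean for each of 15 groups and no block (15 residual and 5.51 prior degrees of freedom, mean-variance trend). Differences are given ± SE, two-sided, with Benjamini-Hochberg adjustment over all genes within each of 16 comparisons at 0.05. "Rose" and "fell" mark calls at that threshold. The rule named all members, up to 6 genes per list with the smallest adjusted p per kind of comparison, and the ligands, limb and cartilage genes shown. The procedure was tested on simulated data.

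Alternatives were a pseudocount of 1, median centring, quantile normalization, no filter, the mean of a gene's probe sets, no day 0 arrays in doubt, a replicate block, the compared arrays alone, and leaving out each array.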

Additional observations from a re-analysis of the deposited data

Results flagged for a closer look

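The response of some genes to BMP4 differed between populations by a test of the difference itself, over days 1 and 2, in limma's model. For Ptch1 the early response lay below the intermediate one by -1.82 ± 0.34 and below the late one by -1.68 ± 0.34. For Ihh these differences were -1.35 ± 0.28 and -1.51 ± 0.28, and for Bcl2 -2.03 ± 0.37 and -1.80 ± 0.37. Twist2 was lower in its early response by -1.24 ± 0.20 against intermediate and by -1.32 ± 0.20 against late. Against late alone, the early response was lower for Sulf2 by -0.60 ± 0.12 and for Etv5 by -0.92 ± 0.21, and higher for Tbx3 by 1.57 ± 0.34. Against intermediate alone it was higher for Gata6 by 2.93 ± 0.52. Without the second array of both early BMP4 groups, Twist2 kept both calls (-1.10, adjusted p = 0.0407, and -1.18, adjusted p = 0.0245), while Ptch1, Ihh, Bcl2, Sulf2, Etv5, Tbx3 and Gata6 kept the direction without passing the threshold.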

How the results depend on the processing

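The 17 calls among the 8 genes kept their direction under every alternative run, and 282 of 344 calls over the alternatives other than the 2 added after seeing the data stayed past the threshold. Hand1 and Hand2 in the mean BMP4 response, and Gli3 in time and between populations, passed under every one. With the mean of probe sets the number of genes called was 1 for BMP4 in intermediate day 1, 2 in early day 2, 0 for the early minus intermediate and 0 for the early minus late response, and 1 from day 0 to day 1. With only the arrays compared, Gli1 from day 0 to day 1 (-0.32, adjusted p = 0.0335) and Ptch1 from day 1 to day 2 (0.55, adjusted p = 0.0125) were added. The number in that fit was 1 in early day 2, 0 for the early minus intermediate response, and 2 each for the early minus late response, early minus late cultures and intermediate minus late cultures. The replicate block gave 2 in the last 3 of these, adding Gli1 in the early minus late response (-1.10, adjusted p = 0.0461), Smo in early minus late cultures and Gli1 in intermediate minus late cultures (-0.51, adjusted p = 0.0188), and it also added Gli2 from day 0 to day 1 (adjusted p = 0.0499). Same-numbered arrays had a correlation of deviations from -0.12 to 0.35, with a median of 0.12 and over 0.1 in 60 of 105 group pairs. The main model does not pair same-numbered arrays, so an effect that they share is not accounted for in it. Quantile normalization and no filter gave 1 from day 0 to day 1. Without the second array of both early BMP4 groups, chosen after seeing the data, the number was 0 in early day 1, early day 2, both early response differences and early minus late cultures. Leaving out 1 array each gave 0 to 3 in early day 2, 0 to 1 in early day 1, 0 to 1 in intermediate day 1, 0 to 0 in the 3 other single BMP4 comparisons, 2 to 3 for the mean, 0 to 1 and 0 to 3 for the early responses, 1 to 3 in both time steps, 1 to 1 between early and intermediate, 0 to 4 between early and late and 1 to 2 between intermediate and late. A lone array is then assumed to vary like other groups. With the mean of probe sets Lrp2 (mean BMP4 response, 0.0016), Tulp3 (day 0 to day 1, -0.093) and Mycn (early minus late cultures, 0.024) changed sign. The cause was not tested. Over all genes, early day 2 calls numbered 860, and 68 without the second BMP4 array.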
